A study of Homo sapiens with 8 samples.

Results

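The 88 genes described here encode the nuclear part of the mitochondrial respiratory chain and ATP synthase: 37 subunits of complex I, 4 of complex II, 10 of complex III, 19 of complex IV and 18 of complex V. They were picked by gene symbol (families NDUFA, NDUFB, NDUFC, NDUFS, NDUFV, SDH, UQCR with CYC1, COX4I to COX8, and ATP5F, ATP5M and ATP5P) out of 24630 features in the count tables. Assembly factors, 193 pseudogenes, 6 noncoding neighbours and 2 readthrough loci carrying similar symbols were left out. No measured value entered this choice. NDUFA4 and its relative NDUFA4L2 were placed in complex IV, where the NDUFA4 protein is found.

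The measurements came from PC9, a human lung adenocarcinoma cell line with an activating EGFR mutation that is sensitive to the EGFR inhibitor gefitinib, and PC9R, a line obtained from PC9 by gefitinib selection over 1 to 2 weeks. Cells of both lines were at passages 8 to 12, per the labels. Each line had 2 RNA-seq libraries, called the first and the second here, and 1 list each of DNase hypersensitive sites (DHS, open chromatin) and of H3K4me2 peaks (a histone mark of promoters and enhancers). Gefitinib exposure is recorded for PC9R only, so what the drug did and what sets the lines apart otherwise cannot be told apart. Nothing in the labels says that a line's 2 RNA libraries were grown separately. The p-values therefore speak only of how these libraries varied, and that variation may be technical.

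Complexes I to IV pass electrons from NADH and succinate to oxygen, and complexes I, III and IV pump protons as they do so. Complex V uses the proton gradient to make ATP. Every complex except complex II also holds subunits encoded in mitochondrial DNA, so nuclear and mitochondrial genes have to supply matching parts, and promoters of the nuclear genes are known targets of the factors NRF1, GABP (an ETS factor), YY1 and SP1. Lung adenocarcinoma cells draw ATP from both glycolysis and this chain.

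The PC9 libraries held 32515891 (first) and 16013058 (second) counts and the PC9R libraries 32502455 and 16715426. The labelled cell type was checked on its markers: the 6 epithelial markers summed to between 10552 and 24186 CPM (counts scaled to a common library size) per library, against 0.534 to 65.2 CPM for leukocyte, endothelial, fibroblast and muscle lists, in which DCN and MYH7 were at 0. In 1 gene each of the leukocyte (CD68), endothelial (CDH5) and fibroblast (COL1A1) lists, expression was higher in PC9R in the fit with a batch term described next; their part in the results below was not tested. First and second libraries differed along GC content: the second-minus-first difference of the 49 tested subunit genes with 1 RefSeq accession ran against transcript GC content in PC9 (Spearman rho -0.76, across genes) and PC9R (rho -0.70). Over the 77 tested subunit genes that difference in PC9 resembled the one in PC9R (Pearson r = 0.86, across genes that share the libraries). The first and second libraries were therefore treated as 2 batches, although no label names them, and counts of calls are given without and with a batch term. Values of single genes come from the fit with that term unless stated otherwise, and 0 of the subunit genes passed in edgeR without it.

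The counts were made per RefSeq accession, and 35 of the 88 genes have 2 or more accessions. These 35 genes held only 2.37% to 2.94% of the subunit counts of a library. How reads shared by accessions were counted is not known here, so a low value of such a gene cannot be read as low expression. Its difference between lines compares only the reads that were counted. Of the 88, 5 had 0 counts in all 4 libraries: COX4I2, COX6A2, COX7B2 and COX8C, which have 1 accession each, and NDUFC2, which has 3. A count of 0 allows up to 3 counts per library. COX4I2 is the lung- and hypoxia-associated form of subunit 4, COX6A2 is the form of heart and skeletal muscle, and COX7B2 and COX8C are known from testis. A further 6 genes (NDUFB5, NDUFC1, NDUFS1, SDHC, SDHD and ATP5MF) were too low to test. This left 77 genes.

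Summed over all 88 genes, expression was 18400.4 and 15783 CPM in the 2 PC9 libraries and 12036 and 12896 CPM in the 2 PC9R libraries, scaled by trimmed mean of M-values (TMM). The PC9R sums were below both PC9 sums, by 0.61 on the log2 scale between the first libraries and by 0.29 between the second. In bulk RNA, fewer cells expressing a gene and less RNA per cell cannot be told apart. The decrease was uneven over the complexes. Complex II summed to 1061 and 783 CPM in PC9 against 515 and 538 CPM in PC9R, a log2 ratio of -0.81. Of that sum 67.6% was SDHA, and SDHC and SDHD had at most 2 counts in any library. Complex III summed to 3841 and 3358 CPM against 1939.8 and 2244 CPM, a log2 ratio of -0.78. In both complexes every PC9R library lay below every PC9 library. Complex V summed to 3964 and 4721 CPM against 2209 and 3378 CPM, a log2 ratio of -0.64, also without overlap, but 72.8% of that sum was ATP5F1B alone. Complex IV went from 4781 and 3389 CPM to 3499 and 3207 CPM (log2 ratio -0.28), and complex I from 4755 and 3532 CPM to 3873 and 3529.6 CPM (log2 ratio -0.16). For complexes I and IV the lines overlapped. Scaled by total counts instead of TMM, the log2 ratios were -0.69 for complex II, -0.67 for III, -0.52 for V, -0.17 for IV and -0.04 for I. Between the second libraries alone, that scaling gave 0.10 for complex I and 0.03 for IV. For complexes II, III and V it gave -0.44, -0.48 and -0.38. With 2 libraries against 2, an exact two-sided permutation test cannot go below p = 0.333, so these sums carry no test.

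**Figure D1:**
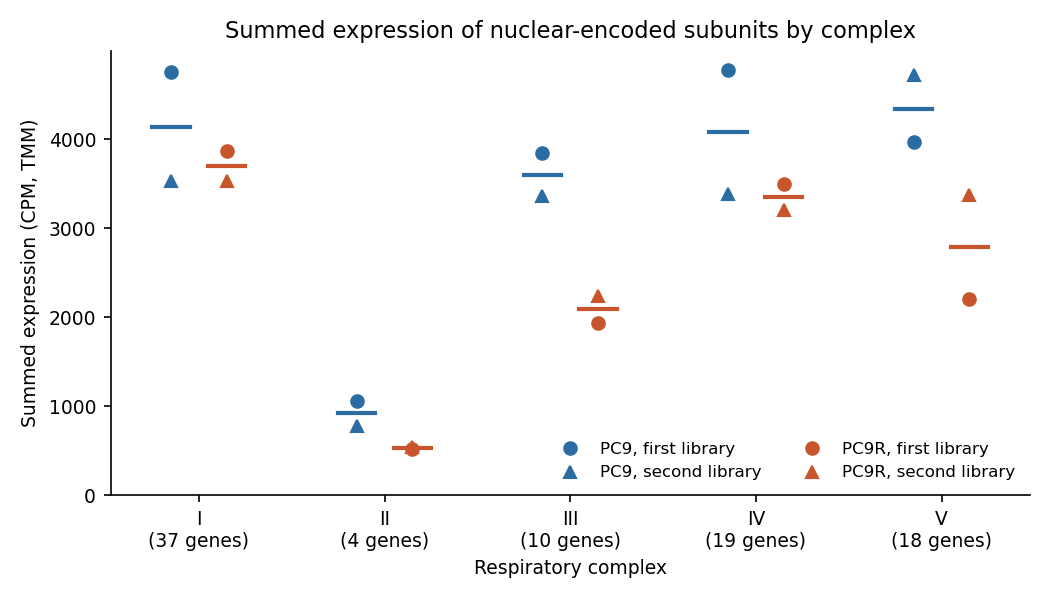
Summed expression (CPM, TMM-scaled, linear axis from 0) of the nuclear-encoded subunit genes of each complex in each of the 4 RNA libraries, with horizontal bars at the mean of each line. PC9R lies below both PC9 libraries for complexes II, III and V, while the lines overlap for complexes I and IV.

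Gene by gene, 0 of the 77 tested genes passed in edgeR without a batch term, where 0.253% of 12660 features passed (24 higher and 8 lower in PC9R, the latter 0.0632%). The lowest edgeR adjusted p was 0.359, for UQCR10, which was also the 1 gene at an unadjusted p under 0.05. DESeq2 called UQCR10 (adjusted p = 0.0406) and limma-voom called 0. With the batch term, which leaves 1 residual degree of freedom and borrows most of its spread across genes, 14 subunit genes passed lower in PC9R, or 18.2% of those tested, against 9.57% of all features. Another 5 passed higher, or 6.49%, against 11.2% of all features, and 20.8% of features passed in either direction. The median log2 fold change over the 77 genes was -0.33 without and -0.34 with the batch term, beside -0.01 over all features in both fits. Without the batch term it was -0.13 when the first PC9 library was left out (0.11 over all features) and -0.46 when the second was (0.057 over all features). Within batches that median was -0.54 between the first and -0.13 between the second libraries. Both libraries of PC9R lay below both of PC9 for 28 genes (14.9% of all features did so) and above both for 6 genes (16.9% of all features). In 46 of the 77 genes PC9R was lower within both batches (37.4% of all features), and in 17 it was higher in both (36.6%). Scaling by total counts instead of TMM moved the median of all features by about the same amount as that of the subunits, to 0.11 and -0.21. That scaling moved the split of calls over all features from 1420 higher and 1211 lower to 1812 and 943, and that of the subunits from 5 and 14 to 6 and 11.

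**Figure D2:**
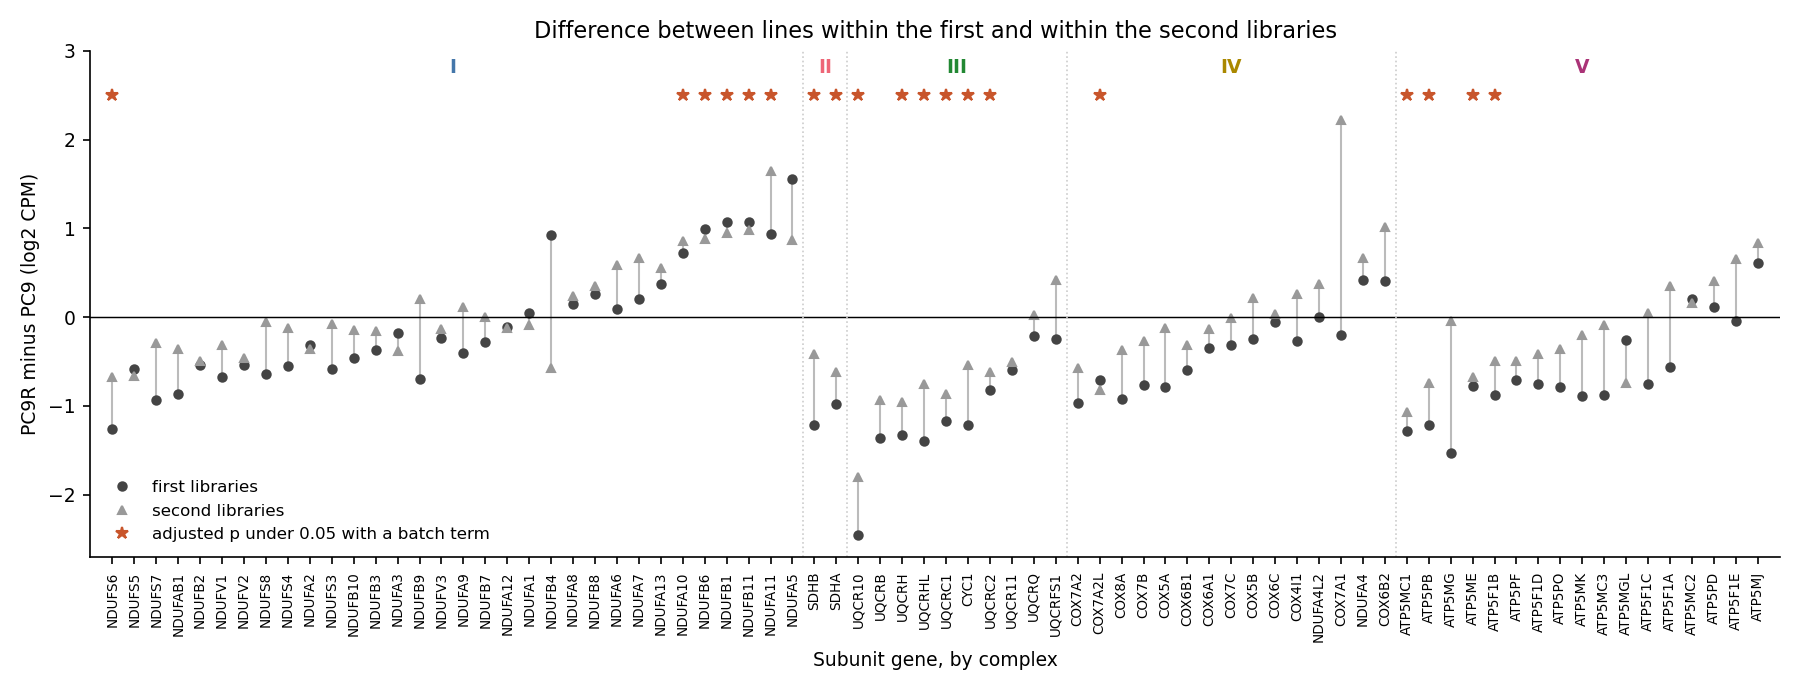
Difference PC9R minus PC9 in log2 CPM for the tested subunit genes reported here, between the first libraries (circles) and between the second libraries (triangles), grouped by complex and ordered within a complex by the fold change with a batch term. Stars mark the 19 genes with an edgeR adjusted p under 0.05 in the fit with a batch term; both symbols lie below 0 for 8 of the 10 complex III genes.

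Complex II, succinate dehydrogenase, feeds electrons from the citric acid cycle into the chain and is wholly nuclear-encoded. Both testable genes of the complex passed lower in PC9R with the batch term, against 9.57% of all features. SDHA, the flavoprotein that oxidizes succinate (chr5:218435-257197, plus strand, build GRCh37), measured 762 and 491 CPM in PC9 and 386 and 319 CPM in PC9R. SDHB, the iron-sulfur subunit (chr1:17345217-17380527, minus strand), measured 299 and 292 CPM in PC9 and 128 and 219 CPM in PC9R. The lines did not overlap for either gene. The log2 fold change of SDHA was -0.83 (SE 0.51, edgeR adjusted p = 0.924) without and -0.80 (SE 0.19, edgeR adjusted p = 0.0199) with the batch term. That of SDHB was -0.77 (SE 0.53, edgeR adjusted p = 0.979) without and -0.82 (SE 0.23, edgeR adjusted p = 0.0397) with the batch term. SDHA has pseudogene copies, so part of its reads may be assigned elsewhere or come from them. SDHC and SDHD, the membrane anchors, have 6 and 5 accessions and at most 0.0667 CPM in any library, so nothing can be said of them here.

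The promoters of SDHA and SDHB are printed because both hold letters of factors known for respiratory genes and both had a DHS peak within 1 kb in both lines. Motifs were searched on both strands in the 250 bases before each start site in GRCh37: GCGC, any 2 bases and GCGC again for NRF1, CCGGAAG for ETS factors such as GABP, AAGATGGC for YY1 and GGGCGG for SP factors. Matches of different motifs were counted separately and may overlap. In the lines below, each on the strand of its gene and read 5′ to 3′ towards the start site, capitals mark NRF1, ETS and YY1 letters.
SDHA promoter, chr5:218185-218434, plus strand: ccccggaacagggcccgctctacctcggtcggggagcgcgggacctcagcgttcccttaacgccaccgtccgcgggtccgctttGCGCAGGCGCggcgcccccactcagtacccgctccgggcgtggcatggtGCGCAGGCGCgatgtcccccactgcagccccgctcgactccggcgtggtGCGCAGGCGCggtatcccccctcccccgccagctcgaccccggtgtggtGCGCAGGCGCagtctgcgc
SDHB promoter, chr1:17380528-17380777, minus strand: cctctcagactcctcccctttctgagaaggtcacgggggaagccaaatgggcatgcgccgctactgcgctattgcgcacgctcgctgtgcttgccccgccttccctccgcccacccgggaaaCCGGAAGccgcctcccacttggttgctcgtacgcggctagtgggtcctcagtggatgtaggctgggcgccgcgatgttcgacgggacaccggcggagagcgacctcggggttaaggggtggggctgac
SDHA held 4 NRF1 matches, starting 166, 117, 68 and 19 bases before the start site and identical in letters, and SDHB held 1 ETS match starting 128 bases before it. Around SDHA the DHS peak spanned chr5:218094-218432 in PC9 and chr5:217993-218298 in PC9R. The PC9 peak covers all 4 matches, and the PC9R peak covers 1 and ends before the 3 nearest the start site. SDHA shares this region with CCDC127, a gene that starts 167 bases away on the opposite strand. A match is a description of letters and not of binding.

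Complex III hands electrons from ubiquinol to cytochrome c and had the most genes lower in PC9R. With the batch term 6 of its 10 genes passed lower (60%, against 9.57% of all features) and 0 higher (against 11.2%). The 6 include UQCRH and its near-identical copy UQCRHL. The median log2 fold change of the complex with that term was -0.95, and 8 of 10 genes were lower within each batch (37.4% of all features). Both core proteins took part. UQCRC1 (chr3:48636435-48647079, minus strand) measured 749 and 431 CPM in PC9 and 331 and 237 CPM in PC9R. The lines were apart, by a log2 fold change of -1.05 (SE 0.53, edgeR adjusted p = 0.814) without and -1.02 (SE 0.19, edgeR adjusted p = 0.00793) with the batch term. UQCRC2 (chr16:21964682-21994981, plus strand) measured 577 and 936 CPM in PC9 and 327 and 608 CPM in PC9R. Its lines overlapped across batches and were apart within each batch (-0.82 and -0.62), and its fold change was -0.72 (SE 0.18, edgeR adjusted p = 0.0243) with the batch term.

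Of the catalytic subunits, CYC1, the cytochrome c1 gene on chromosome 8, measured 884 and 429 CPM in PC9 and 382 and 294 CPM in PC9R. Its lines did not overlap, and its log2 fold change was -0.88 (SE 0.21, edgeR adjusted p = 0.0231) with the batch term. UQCRFS1, the Rieske iron-sulfur protein gene, did not pass: it measured 116 and 126 CPM in PC9 and 97.8 and 169 CPM in PC9R, with a log2 fold change of 0.09 (SE 0.22). The accessory genes UQCRQ (307 and 296 CPM in PC9, then 266 and 301 CPM) and UQCR11 (265 and 158 CPM, then 175 and 111 CPM) did not pass either. UQCRB has 4 accessions and stayed under 1 CPM in every library.

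UQCRH, the hinge protein that docks cytochrome c (chr1:46769370-46782448, plus strand), measured 582 and 689.6 CPM in PC9 and 232 and 355 CPM in PC9R. It was lower by a log2 fold change of -1.14 (SE 0.19, edgeR adjusted p = 0.00521) with the batch term. UQCRHL, its intronless copy (chr1:16133869-16134144, minus strand), measured 324 and 277 CPM in PC9 and 123 and 164 CPM in PC9R, with a log2 fold change of -1.08 (SE 0.22, edgeR adjusted p = 0.0114) in that fit. The lines did not overlap for either. The pair is nearly identical in sequence, so how their reads were divided is uncertain, and the 2 calls are not independent. UQCRHL was 1 of 8 genes with no H3K4me2 peak and 1 of 16 with no DHS peak within 1 kb of its start site in either line, while UQCRH had H3K4me2 in both.

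The largest difference of all 77 genes was in UQCR10, a small accessory subunit (chr22:30163358-30166402, plus strand). It measured 36.5 and 13.9 CPM in PC9 and 6.58 and 3.92 CPM in PC9R, so PC9R lay below PC9 in both batches (log2 -2.46 and -1.80). Its log2 fold change was -2.26 (SE 0.72, edgeR adjusted p = 0.359) without and -2.18 (SE 0.27, edgeR adjusted p = 0.00149) with the batch term, a fold of 4.52. All its counts (1163, 208, 231 and 66) came from 1 of its 2 accessions. Its neighbours moved the same way: the 28 other tested genes within 1 Mb had a median log2 fold change of -1.37 with the batch term, and 26 of them were below 0. UQCR10 had 2 DHS peaks within 1 kb of its start site in PC9, 1 of them over the start site (chr22:30163354-30163584), and none in PC9R. Whether the difference belongs to the gene or to its region was not tested.

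**Figure D3:**
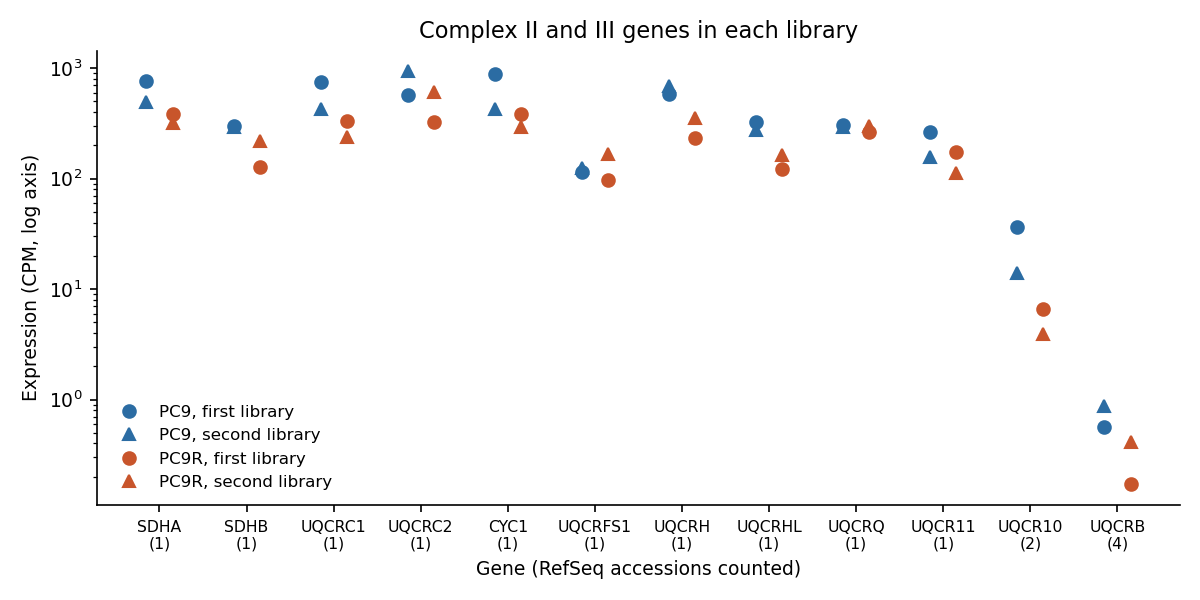
Expression of complex II and III genes in each RNA library (CPM, log axis), with the number of RefSeq accessions under each gene; SDHC and SDHD are too low to draw. Both PC9R libraries lie below both PC9 libraries for SDHA, SDHB, UQCRC1, CYC1, UQCRH, UQCRHL, UQCR10 and UQCRB, and the lines overlap for UQCRC2, UQCRFS1, UQCRQ and UQCR11.

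Promoters of 2 complex III genes that passed are shown because each holds 1 match, of different factors, close to the start site.
UQCRC1 promoter, chr3:48647080-48647329, minus strand: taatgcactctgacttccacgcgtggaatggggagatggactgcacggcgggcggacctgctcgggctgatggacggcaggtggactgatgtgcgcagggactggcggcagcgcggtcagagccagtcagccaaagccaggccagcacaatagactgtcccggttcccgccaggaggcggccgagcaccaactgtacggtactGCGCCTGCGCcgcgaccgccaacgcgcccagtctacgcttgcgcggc
UQCRH promoter, chr1:46769120-46769369, plus strand: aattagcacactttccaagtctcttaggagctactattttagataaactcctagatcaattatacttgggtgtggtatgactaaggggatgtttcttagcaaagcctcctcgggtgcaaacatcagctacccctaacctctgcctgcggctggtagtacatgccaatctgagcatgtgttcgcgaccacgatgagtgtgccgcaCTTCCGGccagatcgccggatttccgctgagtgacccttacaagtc
The NRF1 match of UQCRC1 starts 47 bases before the start site, and the ETS match of UQCRH, read on the opposite strand, starts 46 bases before it. UQCRH starts 82 bases from LRRC41, which is transcribed the other way. Both genes had an H3K4me2 peak over the start site itself in PC9R only, a pattern that the chromatin results below describe for the whole set.

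Complex V is a rotary motor: the F1 head makes ATP, the c-ring in the membrane turns, and a peripheral stalk holds the head. With the batch term 4 of its 17 tested genes passed lower (23.5%, against 9.57% of all features) and 0 higher (against 11.2%). ATP5F1B, the catalytic beta subunit of the head (chr12:57031959-57039768, minus strand), measured 2794 and 3554 CPM in PC9 and 1516 and 2526 CPM in PC9R. The lines did not overlap, at a log2 fold change of -0.69 (SE 0.18, edgeR adjusted p = 0.0285) with the batch term. By the mean of each line's 2 libraries, it also had the highest level per length of the 53 genes with 1 accession. These means were 1804 CPM per kb in PC9 and 1149 CPM per kb in PC9R. In the first PC9 library it measured 1589 CPM per kb, below COX8A (1673). In the first PC9R library it measured 862 CPM per kb, below COX5B (1057), NDUFA1 (951) and COX8A (884). ATP5F1A, the partner of ATP5F1B, has 5 accessions and did not pass (3.78 ± 2.33 CPM in PC9 and 3.19 ± 0.644 CPM in PC9R, mean ± SD, n = 2 libraries, as for the values with ± below).

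ATP5PB, subunit b of the stalk (chr1:111992086-112005395, plus strand), measured 459 and 628 CPM in PC9 and 197 and 374 CPM in PC9R, without overlap, at a log2 fold change of -0.98 (SE 0.20, edgeR adjusted p = 0.0114). ATP5PO, the OSCP subunit that joins stalk and head, measured 231 and 271 CPM in PC9 and 134 and 210.4 CPM in PC9R. Its lines did not overlap but it did not pass (edgeR adjusted p = 0.0732 with the batch term). The genes ATP5MC1, ATP5MC2 and ATP5MC3 encode the same mature c-ring protein. ATP5MC1, at 4.33 and 7.21 CPM in PC9 against 1.74 and 3.39 CPM in PC9R, passed lower (log2 fold change -1.20, SE 0.29, edgeR adjusted p = 0.0233). ATP5MC2 (24.9, 6.81, 28.6 and 7.61 CPM in the same order) and ATP5MC3 (42.1, 42.6, 22.9 and 40.0 CPM) did not. All 3 have 2 or 3 accessions, so their shares of the c-ring message are not known from these counts.

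ATP5ME, subunit e of the membrane part (chr4:666225-668065, minus strand), measured 111 and 46.8 CPM in PC9 and 64.8 and 29.2 CPM in PC9R, all from 1 of 2 accessions. The lines overlapped across batches and were apart within each (-0.78 and -0.68), at a log2 fold change of -0.73 (SE 0.20, edgeR adjusted p = 0.0372) with the batch term. ATP5MG and its retrogene copy ATP5MGL stayed at or under 4.14 CPM and did not pass. The most positive fold change in complex V was that of ATP5MJ, a small membrane-part subunit with 2 accessions, at 0.815 and 1.00 CPM in PC9 against 1.28 and 1.84 CPM in PC9R, and it did not pass (log2 fold change 0.75, SE 0.39). The ATP5ME promoter is shown for its pair of NRF1 matches, starting 219 and 174 bases before the start site.
ATP5ME promoter, chr4:668066-668315, minus strand: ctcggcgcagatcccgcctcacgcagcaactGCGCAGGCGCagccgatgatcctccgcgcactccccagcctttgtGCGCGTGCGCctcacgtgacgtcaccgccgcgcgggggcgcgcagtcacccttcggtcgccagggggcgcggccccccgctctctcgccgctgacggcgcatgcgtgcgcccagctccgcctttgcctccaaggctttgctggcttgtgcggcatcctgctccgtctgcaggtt
Neither line had a DHS peak within 1 kb of this start site.

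Complex IV, cytochrome c oxidase, reduces oxygen. Of its 15 tested genes 1 passed lower with the batch term (6.67%, against 9.57% of all features) and 0 higher (against 11.2%). The median log2 fold change was -0.16. The gene that passed, COX7A2L (chr2:42576478-42588357, minus strand), is named as a complex IV subunit but is known for joining complexes III and IV into supercomplexes. It measured 292 and 447 CPM in PC9 and 178 and 253 CPM in PC9R, without overlap, at a log2 fold change of -0.76 (SE 0.18, edgeR adjusted p = 0.0208). The core nuclear subunits did not pass. COX4I1 measured 598 and 359 CPM in PC9 and 498 and 429.6 CPM in PC9R, COX5B measured 863 and 330.1 CPM and then 729 and 384 CPM, and COX5A measured 229 and 225 CPM and then 133 and 206 CPM. COX4I1 and COX5B overlapped between lines, with log2 fold changes within 0.02 of 0 in the fit with a batch term, and COX5A did not overlap (-0.46, SE 0.22).

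Of the paired forms in complex IV, the widely expressed members carried the message. COX6A1 averaged 178 ± 43.2 CPM in PC9 and 149 ± 20.6 CPM in PC9R, while COX6A2 was at 0 counts. COX6B1 averaged 404 ± 133 and 289 ± 57.5 CPM, while the testis form COX6B2 averaged 0.945 ± 0.393 and 1.54 ± 0.159 CPM. COX7B averaged 379 ± 31.9 and 266 ± 43.1 CPM and COX8A 568 ± 366 and 338 ± 140.1 CPM, while COX7B2 and COX8C were at 0 counts. COX7A1, the muscle form, stayed under 1 CPM and its usual counterpart COX7A2, with 2 accessions, measured 5.96 and 8.08 CPM in PC9 and 3.02 and 5.41 CPM in PC9R. NDUFA4 measured 117 and 182 CPM in PC9 and 156 and 289 CPM in PC9R, higher within each batch but not past the test (log2 fold change 0.55, SE 0.19, edgeR adjusted p = 0.0749). NDUFA4L2, a hypoxia-induced relative, averaged 1.86 ± 0.833 and 2.06 ± 0.555 CPM.

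Complex I, the NADH dehydrogenase and entry point of most electrons, held all 5 genes that passed higher in PC9R with the batch term and 1 that passed lower, of 33 tested. That is 15.2% higher, against 11.2% of all features, and 3.03% lower, against 9.57%. Its median log2 fold change was -0.18. NDUFA10, a membrane-arm accessory subunit (chr2:240896789-240964759, minus strand), measured 226 and 202 CPM in PC9 and 373 and 366 CPM in PC9R. NDUFB1, a small accessory subunit of the distal membrane arm (chr14:92582467-92588050, minus strand), measured 30.4 and 42.0 CPM in PC9 and 63.7 and 80.9 CPM in PC9R. The lines did not overlap for either gene. The log2 fold change of NDUFA10 was 0.79 (SE 0.49, edgeR adjusted p = 0.933) without and 0.79 (SE 0.18, edgeR adjusted p = 0.0187) with the batch term. That of NDUFB1 was 1.00 (SE 0.56, edgeR adjusted p = 0.876) without and 1.01 (SE 0.21, edgeR adjusted p = 0.0124) with it.

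The other 3 higher genes were low and have 2 or 3 accessions each. NDUFB11 (chrX:47001615-47004101, minus strand) measured 5.24 and 3.34 CPM in PC9 and 11.1 and 6.66 CPM in PC9R; with the batch term it passed (edgeR adjusted p = 0.0275). NDUFA11 (chr19:5894686-5903801, minus strand) measured 3.20 and 1.07 CPM and then 6.21 and 3.51 CPM (edgeR adjusted p = 0.0322). NDUFB6 (chr9:32552997-32573160, minus strand) measured 2.01 and 4.6 CPM and then 4.07 and 8.56 CPM (edgeR adjusted p = 0.0451), with overlap across batches only. All 3 belong to the membrane arm. NDUFA11 and NDUFB6 did not pass in DESeq2 with the same batch term. The NDUFA11 promoter is shown as the 1 promoter of the 5 with an NRF1 match, starting 98 bases before the start site.
NDUFA11 promoter, chr19:5903802-5904051, minus strand: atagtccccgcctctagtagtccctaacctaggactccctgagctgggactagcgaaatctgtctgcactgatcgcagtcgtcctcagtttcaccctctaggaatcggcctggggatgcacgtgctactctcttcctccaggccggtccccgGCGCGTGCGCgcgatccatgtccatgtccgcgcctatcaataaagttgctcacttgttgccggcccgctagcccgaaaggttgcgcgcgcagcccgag

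NDUFS6, an accessory subunit of the NADH-oxidizing N-module (chr5:1801521-1816162, plus strand), was the complex I gene that passed lower. It measured 593 and 348 CPM in PC9 and 248 and 218 CPM in PC9R, without overlap, at a log2 fold change of -1.02 (SE 0.53, edgeR adjusted p = 0.819) without and -0.97 (SE 0.21, edgeR adjusted p = 0.0143) with the batch term. The core subunits of complex I that were tested did not pass. NDUFS3 measured 237 and 194 CPM in PC9 and 157 and 184 CPM in PC9R, without overlap, at -0.34 (SE 0.20). NDUFV2 (80.1 and 125 CPM, then 55.0 and 90.4 CPM) and NDUFV1 (30.2 and 12.4 CPM, then 18.9 and 9.99 CPM) overlapped, at -0.50 (SE 0.20) and -0.51 (SE 0.24). NDUFS7 (192 and 37.8 CPM, then 100.4 and 30.9 CPM) and NDUFS8 (474 and 147 CPM, then 305 and 142 CPM) differed more between batches than between lines. NDUFS1, with 5 accessions, was at most at 0.125 CPM and was not tested. NDUFA1, the highest complex I gene per length by the mean of each line (1008 CPM per kb in PC9 and 990.4 CPM per kb in PC9R), was near 0 in difference (log2 fold change -0.02, SE 0.18). In the first PC9 library NDUFS6 was above NDUFA1 (1145 against 923 CPM per kb).

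Levels per length were compared over the 53 genes with 1 accession, by their GENCODE transcript lengths and the mean of each line's 2 libraries. The order after ATP5F1B in PC9 was UQCRH (1184 CPM per kb), COX8A (1150), UQCRHL (1088), NDUFA1 (1008), NDUFS6 (909) and COX5B (864). In PC9R the order was NDUFA1 (990.4) after ATP5F1B, then COX5B (807), COX8A (684) and COX7C (675), with UQCRH at 546 and NDUFS6 at 449 CPM per kb. Neighbours in these orders, such as COX8A and UQCRHL in PC9, differed by less than the spread between libraries.

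Tested genes near a subunit gene differed in the same direction as that gene in some cases and not in others. For NDUFA10, NDUFB1 and NDUFB11 the median log2 fold change of the other tested genes within 1 Mb was 1.16 (10 genes), 0.97 (9 genes) and 0.77 (12 genes), while for NDUFA11 and NDUFB6 it was -0.13 and -0.19. SDHA and NDUFS6, on the same end of chromosome 5, had neighbour medians of -0.68 and -0.88 (9 genes each), UQCRC1 had -0.65 (37 genes) and SDHB -0.43 (19 genes). CYC1 (-0.04, 57 genes), ATP5F1B (-0.10, 52 genes), ATP5ME (0.05, 23 genes) and ATP5MC1 (0.37, 23 genes) passed lower in surroundings near or above 0. UQCRH and UQCRC2 had neighbour medians of -0.23 and -0.25. Across the 68 genes with at least 5 tested neighbours, a gene and its neighbours shared their sign in 44, and Spearman's rho was 0.48, a description of points that share libraries and, in places, neighbours. The same values were not computed for tested genes in general, so they do not show a trait of the subunit genes. The part that such regional differences have in these results was not tested.

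**Figure D4:**
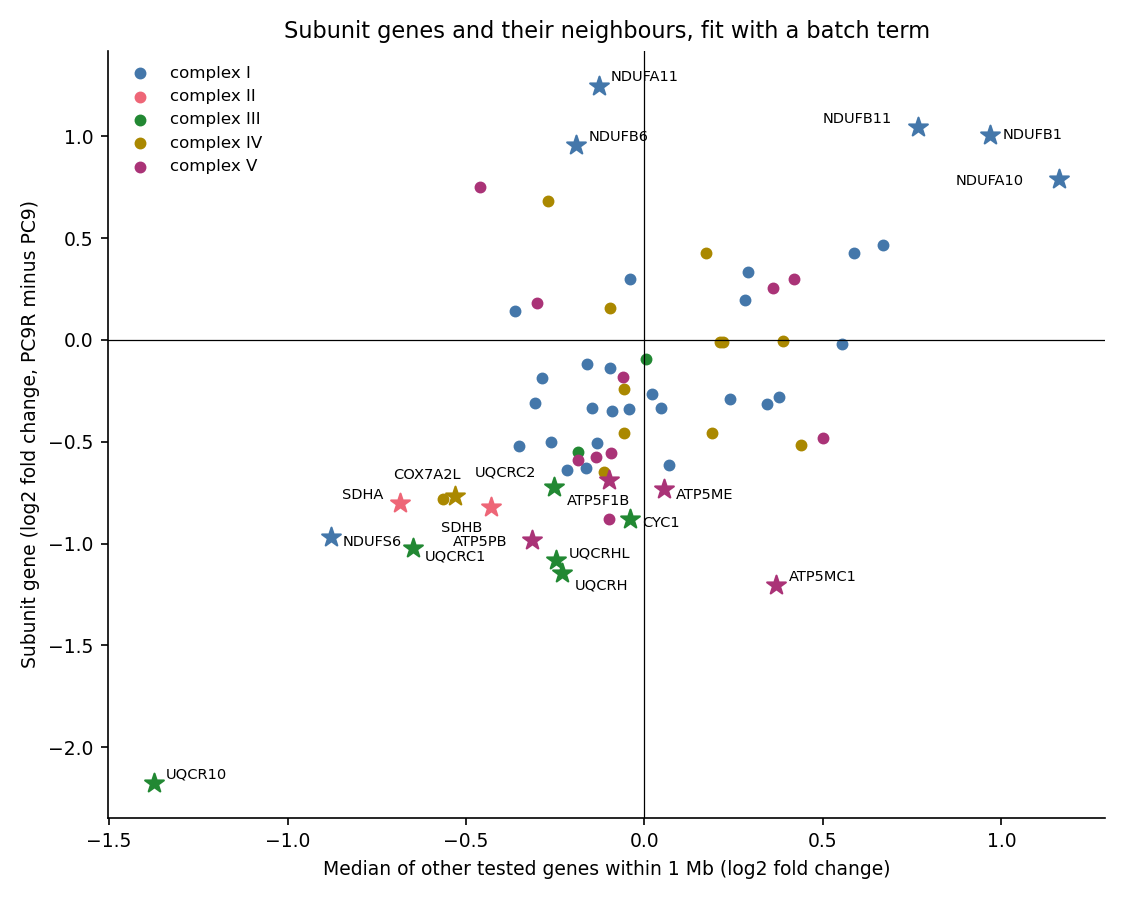
Log2 fold change (PC9R minus PC9, fit with a batch term) of each of 68 subunit genes against the median of the other tested genes within 1 Mb; stars are genes with an edgeR adjusted p under 0.05. UQCR10 lies lowest on both axes, NDUFA10, NDUFB1 and NDUFB11 lie farthest right, and CYC1, ATP5F1B, ATP5ME and ATP5MC1 are low with neighbour medians near or above 0.

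Open chromatin near the start sites was common in both lines. A DHS peak lay within 1 kb of the start site of 50 of the 88 genes in PC9 (56.8%, against 45.7% of 11034 tested coding genes) and of 60 in PC9R (68.2%, against 53.9%). The 88 include untested genes and the coding genes do not. Among the 77 tested subunit genes the shares were 61.0% in PC9 and 66.2% in PC9R, which lie closer together. Of the 88, 38 had one in both lines (35.6% of coding genes did), 12 in PC9 only (10.1%), 22 in PC9R only (18.3%) and 16 in neither (36.0%). Directly over the start site, a DHS peak was found in 18 genes in PC9 (20.5%, against 18.6% of coding genes) and in 20 in PC9R (22.7%, against 17.8%). It was there in PC9 only for 10 genes (11.4%, against 9.10% of coding genes) and in PC9R only for 12 (13.6%, against 8.27%). Of the 77 tested subunit genes, 17 had a DHS peak over the start site in PC9 and 17 in PC9R (22.1% each). Among the higher-scored peaks of each list, 32 genes had one within 1 kb in PC9 (36.4%, against 34.3% of coding genes) and 41 in PC9R (46.6%, against 37.3%). The PC9R list holds 59600 DHS peaks and the PC9 list 19648, from 1 library each, so these counts were not tested and no replicate stands behind them. DHS within 1 kb in PC9R only was found at 16 tested genes. Of these, 4 passed higher (NDUFA10, NDUFB1, NDUFB11 and NDUFB6) and 3 passed lower (CYC1, NDUFS6 and UQCRH). Over all features 11.2% passed higher and 9.57% lower. Calls among other coding genes of that class were not counted, so a link of DHS to expression was not tested. The 16 tested genes of that class had a median log2 fold change of 0.02 with the batch term. The 12 with DHS in PC9 only had -0.40 (1 passed lower, 0 higher), and the 35 with DHS in both had -0.29 (8 lower, 1 higher). The 14 with DHS in neither had the lowest median, -0.49 (2 lower, 0 higher).

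H3K4me2 peaks were found within 1 kb of the same 80 genes in both lines (91.9% of coding genes had one in both, 92.9% in PC9 and 93.2% in PC9R), and 0 genes had one in a single line (0.997% of coding genes in PC9 only and 1.31% in PC9R only). The 8 without were UQCRHL, COX4I2, COX6A2, COX7A1, COX7B2, COX8C, NDUFA4L2 and ATP5MGL, the copies and tissue-restricted forms that were at 0, low or uncertain in the RNA. Of the 77 tested subunit genes, 4 were without (5.19%), against 5.79% of tested coding genes. The lines differed in where the peaks lay. In PC9 the peaks flanked the start site and covered it in 26 of 88 genes (29.5%, against 57.5% of tested coding genes). In PC9R they covered it in 56 (63.6%, against 42.1% of coding genes). Among the 77 tested subunit genes the shares were 29.9% in PC9 and 63.6% in PC9R. A peak over the start site in PC9R only was found at 37 subunit genes (42.0%, against 11.7% of coding genes) and in PC9 only at 7 (7.95%, against 27.0%). The share was higher in PC9R at subunit genes and was lower in PC9R over all coding genes.

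This held within each complex: coverage went from 15 to 28 of 37 genes in complex I, from 0 to 3 of 4 in complex II, from 2 to 5 of 10 in complex III, from 4 to 8 of 19 in complex IV and from 5 to 12 of 18 in complex V. The 77 mitochondrial ribosome genes went from 53.2% to 67.5%, and the 2487 coding genes averaging at least 100 CPM from 50.7% to 37.5%. The subunit promoters have a median GC content of 60.4%, against 66.0% in coding genes, and the part of GC content in the difference was not tested. Coding genes at or below that subunit median went from 52.4% to 56.2%, and those above it from 59.6% to 36.3%. Subunit genes went from 17 to 31 of 46 at or below it and from 9 to 25 of 42 above it. The PC9R list also has more and narrower peaks (117861 with a median width of 395 bases, against 85246 and 546 bases). With 1 library per line, a difference between lines and one between libraries cannot be told apart.

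The median difference in expression was below 0 in every class of start-site cover. Of the 33 tested genes covered in PC9R only, 5 passed lower (ATP5F1B, ATP5MC1, SDHB, UQCRC1 and UQCRH) and 1 higher (NDUFA11), with a median log2 fold change of -0.28. Of the 21 covered in neither line, 6 passed lower (ATP5ME, ATP5PB, CYC1, SDHA, UQCRC2 and UQCRHL) and 1 higher (NDUFA10), with a median of -0.48. The 16 covered in both had a median of -0.25, with 2 lower (COX7A2L and NDUFS6) and 2 higher (NDUFB1 and NDUFB11). The 7 covered in PC9 only had -0.31, with 1 lower (UQCR10) and 1 higher (NDUFB6). Over all 77 tested subunit genes 18.2% passed lower and 6.49% higher, against 9.57% and 11.2% of all features. Calls among other coding genes of each class were not counted.

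**Figure D5:**
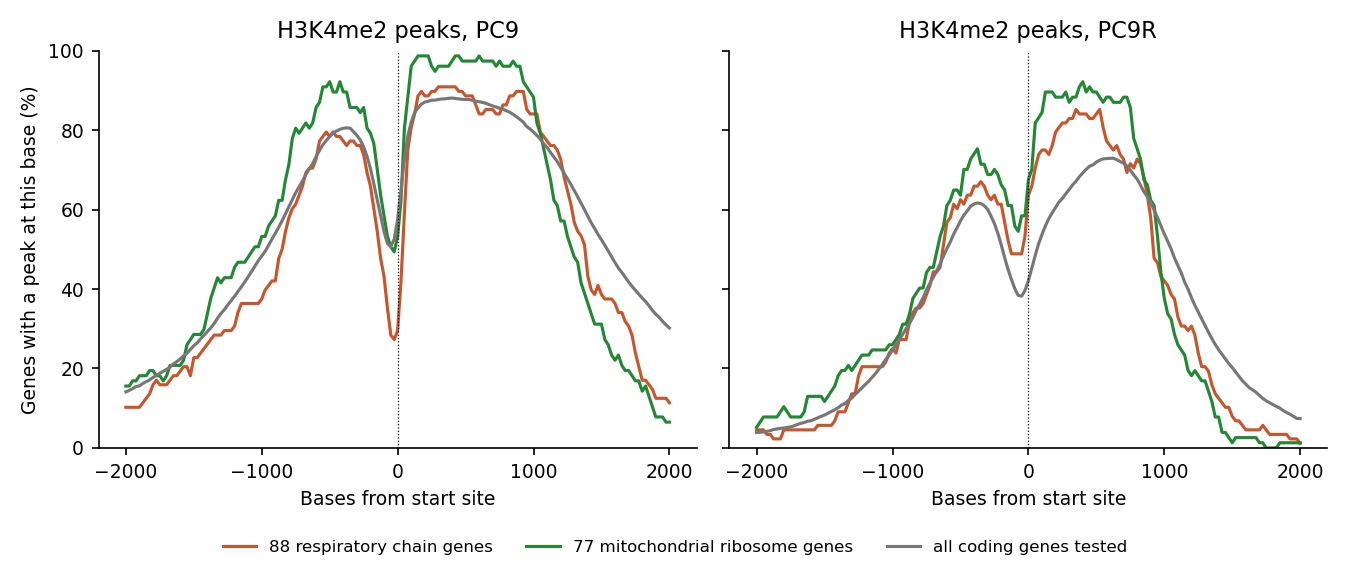
Percentage of genes with an H3K4me2 peak at each position from 2000 bases before to 2000 bases after the start site, in PC9 (left) and PC9R (right), for the 88 respiratory chain genes, 77 mitochondrial ribosome genes and all tested coding genes. At the start site the respiratory chain line is at 29.5% in PC9, below the coding genes at 57.5%, and at 63.6% in PC9R, above the coding genes at 42.1%.

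In sequence, the 250 bases before the start site held the NRF1 letters in 19 of the 88 genes (21.6%, against 14.3% of tested coding genes), the ETS letters in 21 (23.9%, against 16.0%), the YY1 letters in 2 (2.27%, against 1.77%) and the SP letters in 49 (55.7%, against 72.0%). At least 1 of the NRF1, ETS and YY1 motifs was present in 38 (43.2%, against 29.1%). By complex, NRF1 letters were in 6 of 37 promoters of complex I, 2 of 4 of complex II, 4 of 10 of complex III, 1 of 19 of complex IV and 6 of 18 of complex V. Of the 14 genes that passed lower, 3 held NRF1 letters (21.4%: SDHA, UQCRC1 and ATP5ME) and 2 held ETS letters (14.3%: SDHB and UQCRH). Neither share was above that of all 88 genes. A head-to-head coding gene started within 1 kb of 25 of the 88 start sites (28.4%, against 13.2% of coding genes).

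The genes that build, feed and regulate the complexes were read from lists alongside. For comparison with the shares below, 9.57% of all features passed lower and 11.2% passed higher with the batch term. Of the assembly factors, 1 of 13 tested for complex I (7.69%) passed lower with the batch term, NDUFAF4 (34.9 and 83.0 CPM in PC9, then 17.9 and 48.2 CPM, with edgeR adjusted p = 0.0226). For complexes II, III and V 0 of 4, 0 of 5 and 0 of 3 passed. For complex IV 1 of 20 (5%) passed higher, the copper-handling factor COX19. Another 1 (5%) passed lower, the mitochondrial mRNA stabilizer LRPPRC (1085 and 2409 CPM in PC9, then 617 and 1604 CPM, with edgeR adjusted p = 0.0243). Of 15 genes for electron carriers and coenzyme Q synthesis, 3 passed lower (20.0%) and 0 higher, with a median log2 fold change of -0.34. These were COQ3, a methyltransferase of coenzyme Q synthesis, and PDSS1 and PDSS2, the pair that makes its side chain. PDSS2 measured 54.5 and 100.3 CPM in PC9 and 25.5 and 32.8 CPM in PC9R without overlap. Its log2 fold change was -1.35 (SE 0.23, edgeR adjusted p = 0.00558).

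The mitochondrial ribosome, which translates the mitochondrially encoded subunits, had 13 of 75 tested genes lower (17.3%, against 9.57% of all features) and 0 higher (against 11.2%), with a median of -0.22. Its lowest was MRPL19, at 176 and 469.8 CPM in PC9 and 64.9 and 185 CPM in PC9R, a log2 fold change of -1.39 (SE 0.19, edgeR adjusted p = 0.00201). Of 17 citric acid cycle genes 1 passed lower (5.88%), IDH3B, and the median was -0.30. Of 17 glycolysis genes 3 passed lower (17.6%) and 1 higher (ALDOC, 5.88%), with a median of -0.34. The hexokinase gene HK2 measured 191 and 183 CPM in PC9 and 33.6 and 31.1 CPM in PC9R, a log2 fold change of -2.53 (SE 0.20, edgeR adjusted p = 0.000211). Among 9 tested regulators of mitochondrial genes 1 passed (11.1%), YY1, which was higher: 203 and 218 CPM in PC9 and 324 and 400.5 CPM in PC9R, a log2 fold change of 0.77 (SE 0.18, edgeR adjusted p = 0.0212). The factor genes NRF1, GABPA and ESRRA have 2 or 3 accessions and stayed at or under 3.36 CPM, and the coactivator gene PPARGC1A was at 0 counts in 3 of 4 libraries. No counted feature was matched to the 13 mitochondrially encoded subunits, so they were not analysed here.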

How the data were processed

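RNA was measured in 4 libraries, 2 per line, and chromatin in 4 peak lists. The authors deposited unnormalized counts per RefSeq accession, and peak lists with a score per peak whose scale no source read here gives. Per the submitters' processing notes, MACS2, TopHat, HTSeq, DESeq and build hg19 were used, with no versions or roles, and nothing read here says how reads shared by accessions were counted.

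Counts were summed per gene, giving 24630 features, and 12660 passed edgeR's filterByExpr. edgeR 4.0.16 (R 4.3.3) was run on them with TMM scaling and the quasi-likelihood test, without and with a batch term (first or second library), at an adjusted p under 0.05 over all features. Log2 CPM used a prior count of 2. DESeq2 1.42.0 and limma 3.58.1 were alternatives. The term follows a check in which second-minus-first differences in PC9 and PC9R correlated across features (Pearson r = 0.79). Peaks were joined to GENCODE start sites on GRCh37 within 1 kb. Scripts were tested on simulated data.

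The genes, lists and tests were chosen with earlier results of these data known. Genes named are the core subunits, the paired isoforms, and in each complex the highest by CPM, up to 5 called per direction and the extremes in fold change. NDUFC2, NDUFB5, NDUFC1, ATP5MF, UQCRQ, UQCR11 and others outside that rule are named where they fall in a count or a group described. Of the tested subunit genes, 1 enters the counts and is not reported here.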

Additional observations from a re-analysis of the deposited data

How the results depend on the processing

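Over all features, 32 calls without a batch term became 2631 with the replicate block (1420 higher, 1211 lower), which is the batch term of the report. Without that block the count was 0 with upper quartile scaling (where 919 had an unadjusted p under 0.05), and it was 440 with no filter, 13 with a stricter filter, 381 with DESeq2, 73 with limma-voom, and 83 to 254 when 1 library was left out. With the replicate block it was 2905 with RLE scaling, 2584 with upper quartile scaling, 2350 with DESeq2, 2919 with limma-voom and 2755 with total count scaling. Of the subunit genes 0 were called without the block in edgeR and 1 in DESeq2. With the replicate block 19 were called, 21 with RLE scaling, 17 with upper quartile scaling, 18 with DESeq2, 21 with limma-voom and 17 with total count scaling. ATP5F1B and SDHB were lost with upper quartile scaling, NDUFA11 and NDUFB6 with DESeq2, and ATP5F1B, ATP5ME and SDHB with total count scaling. COX8A was gained with RLE scaling, DESeq2 and limma-voom, NDUFAB1 with RLE scaling and limma-voom, and NDUFA4 with total count scaling. The fits that join the block to another scaling or tool were chosen after seeing the data.

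Leaving out 1 library gave log2 ratios of -0.36 (without the second PC9 library) to 0.068 (without the first) for complex I, -0.51 to -0.016 (the same libraries) for complex IV and -0.97 (without the second PC9R library) to -0.36 (without the first) for complex V. The median over the subunit genes ranged from -0.46 to -0.13, again without the second and the first PC9 library. The sign of the log2 fold change turned for 13 of 46 named genes, with these ranges: ATP5F1A (-0.79 to 0.57), ATP5MC2 (-1.06 to 1.40), COX4I1 (-0.39 to 0.36), COX5B (-0.66 to 0.74), COX6A1 (-0.51 to 0.0099), COX7A1 (-0.44 to 0.55), COX8A (-1.32 to 0.12), NDUFA1 (-0.15 to 0.077), NDUFA4L2 (-0.27 to 0.69), NDUFS7 (-1.90 to 0.78), NDUFS8 (-1.13 to 0.59), NDUFV1 (-1.09 to 0.21) and UQCRFS1 (-0.32 to 0.48). NDUFA1 also turned with upper quartile scaling (0.025) and with the stricter filter (0.012). The fits and sums with 1 library left out had no batch term, so line and batch are mixed in them. With the batch term on all 4 libraries, 0 of the 46 turned. Within both batches COX6A1, COX8A, NDUFS7, NDUFS8 and NDUFV1 were lower in PC9R, and ATP5MC2 and NDUFA4L2 were higher. The sign differed between batches for ATP5F1A, COX4I1, COX5B, COX7A1, NDUFA1 and UQCRFS1. The cause of the turns was not tested. DHS peaks over the start site were 18 in PC9 and 20 in PC9R, against 50 and 60 within 1 kb, and 32 and 41 within 1 kb among the higher-scored peaks; H3K4me2 over the start site was 26 in PC9. With 2 libraries per line and 1 chromatin library each, small differences were not detectable.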
